A study of Homo sapiens with 12 samples.

Results

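WNT ligands are secreted, lipid-modified glycoproteins through which neighbouring cells signal to one another. They bind Frizzled (FZD) receptors on the receiving cell. In the canonical branch the co-receptors LRP5 and LRP6 join the complex, β-catenin (encoded by CTNNB1) escapes degradation, and target genes such as AXIN2 are transcribed together with TCF/LEF factors. WNT5A and WNT5B are best known for the non-canonical branch, which uses receptors such as ROR2 and works without β-catenin. Cells also secrete antagonists, of which SFRP proteins bind WNT ligands directly and DKK1 blocks the LRP co-receptors. In lung, WNT2 and WNT5A are known as ligands made by mesenchymal cells.

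The 10 genes described here were taken from a list of symbols, out of 16451 symbols with at least 1 read in the coding sequence (CDS). They comprise 4 ligands (WNT16, WNT2, WNT5A and WNT5B) and 3 secreted antagonists (SFRP1, DKK1 and DKK3). The other 3 do not belong to either class, since FZD1 and FZD2 are receptors and AXIN2 is an intracellular feedback target. WNT16 was selected on its gain in ribosome footprints in these same libraries, so its values are given as a description and without a test. The list as a whole was chosen by hand with earlier results of these data known, and counts below therefore use the other 9 genes and are read against the share of all genes called.

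IMR90, the cell line used, consists of diploid fibroblasts from normal fetal human lung. Cultures were dividing (proliferating, Pro) or had been passaged continuously to replicative exhaustion (senescent, Sen). The study describes its populations entering senescence as heterogeneous. No agent or genetic change distinguishes the states in the labels, and culture protocols name 2 isolates of the line without assigning samples to them, so an isolate effect and a state effect cannot be told apart. The RNA-seq data of proliferating cells bear a name tag that resembles DMSO, a solvent, and whether it was added is not known. Both states were sampled with 3 lysates. RNA-seq of poly(A)-enriched RNA and Ribo-seq, in which the stretches of mRNA covered by ribosomes are sequenced, were run on every lysate.

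RNA-seq reads in the CDS and both UTRs of a gene were added to give its mRNA level, and ribosome-protected fragments (RPF) were its CDS reads in Ribo-seq. Both are given as CPM, which divides a count by its library's size after TMM scaling. The 6 RNA-seq libraries held from 7902427 to 14144455 such reads, whereas Ribo-seq libraries ranged from 54421 to 1718521 CDS reads, a 31.6-fold spread. The replicates Pro 1 and Sen 2 of Ribo-seq were the shallow ones and together held 2.29% of all RPF reads, so that 1 read was worth many CPM there. They also stood apart in where their reads fell, with 34.4% of assigned reads in CDS in Pro 1 and 14.98% in Sen 2 against 54.7 to 88.8% in the other Ribo-seq libraries, and Sen 2 had 110.1 reads in 5′ UTRs per 100 CDS reads. All 8 fibroblast markers examined (COL1A1, VIM and others) were read, with a summed level of 28217 to 31734 CPM in Pro and 26700 to 29942 CPM in Sen. Among markers of other lineages, PECAM1, VWF and CDH5 of endothelium, CDH1 and KRT5 of epithelium and PTPRC of leukocytes had under 10 reads in every RNA-seq library, and EPCAM of epithelium had 4 to 12. CD14 of myeloid cells had 2, 0 and 1 reads in Pro and 9, 12 and 9 in Sen. The summed levels of these lists of 4 genes each were 54.4 to 62.0 CPM in Pro and 93.7 to 105.5 CPM in Sen for endothelium, 0.558 to 1.71 and 1.10 to 1.19 CPM for epithelium, and 19.1 to 21.2 and 31.97 to 35.1 CPM for leukocytes. TEK, listed with the endothelial markers, was read at 53.8 to 61.4 CPM in Pro and 92.7 to 104.7 CPM in Sen, and CD68, listed with the immune ones, at 18.9 to 21.0 and 31.1 to 34.1 CPM, and the part of TEK, CD68 or CD14 in the results was not tested. MKI67, a proliferation marker, lay at 148.2 to 152.0 CPM in Pro and 28.2 to 32.1 CPM in Sen, and CDKN1A, a cell cycle inhibitor, at 490.3 to 512.4 and 1462 to 1581 CPM.

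The ligands and receptors are members of gene families, and some of their coding sequence is identical between paralogs. A stretch of 35 identical bases is shared by the coding sequences of WNT5A (bases 1056 to 1090, counted from the start codon) and WNT5B (bases 993 to 1027), and one of 81 bases by those of FZD1 (1182 to 1262) and FZD2 (957 to 1037). The windows below cover the start of each stretch. They are shown because a footprint that falls wholly inside such a stretch cannot be told apart between the paralogs, and capitals mark the first 24 bases of the shared run. Sequences and places are from GENCODE v44 lifted to GRCh37, and each window lies within a single coding exon.
WNT5A, chr3:55504184-55504213, minus strand: gcagacGGAGCGCTGCCACTGCAAGTTCCA
WNT5B, chr12:1755325-1755354, plus strand: gcaggtGGAGCGCTGCCACTGCAAGTTCCA
FZD1, chr7:90895371-90895400, plus strand: tgtggcGCAGGGCACCAAGAAGGAGGGCTG
FZD2, chr17:42636007-42636036, plus strand: ggtggtGCAGGGCACCAAGAAGGAGGGCTG

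Counted over all windows of 28 bases, about the length of a footprint, identity with another gene was small for the ligands. It covered 0.806% of the WNT5A and 0.855% of the WNT5B coding sequence (with each other) and 1.04% of that of WNT2 (with WNT8A). No such window was shared for WNT16, SFRP1, DKK1 or DKK3. The receptors shared more, 7.25% for FZD1 and 10.7% for FZD2. For AXIN2 the share was 47.3%, since the annotation holds a second protein-coding gene (ENSG00000266076) on the same strand over part of it. How the authors placed reads with several matches is not given in the sources used here, and values of FZD1, FZD2 and AXIN2 carry that uncertainty.

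Senescent cells held more mRNA of the non-canonical ligands WNT5A and WNT5B and of all 3 antagonists, and less of the ligand WNT2 and of the feedback target AXIN2. The mRNA of the receptors FZD1 and FZD2 did not pass the test. In numbers, 7 of the 9 tested genes passed an adjusted p-value of 0.15 in the mRNA layer (edgeR quasi-likelihood test, two-sided, adjusted over all 12787 genes tested), 5 of them higher and 2 lower. This threshold called 73.6% of all genes tested, 36.6% as higher and 37% as lower in senescence, so the number called is near the background. The median log2 fold change of the 9 genes was 0.81 and that over all genes -0.01, a difference that the choice of the list does not allow to be tested.

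In the RPF layer 8 of the 9 genes could be tested and 6 passed, 5 as higher and WNT2 as lower. The share called over all 7521 genes was 54.4%, with 27.5% higher and 26.9% lower. Translational efficiency (TE) is the change in RPF beyond the change in mRNA, and here 1 of 8 tested genes, WNT2, passed, against 9.37% of all 7473 genes. The median log2 change in TE over these 8 genes was 0.19.

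**Figure D1:**
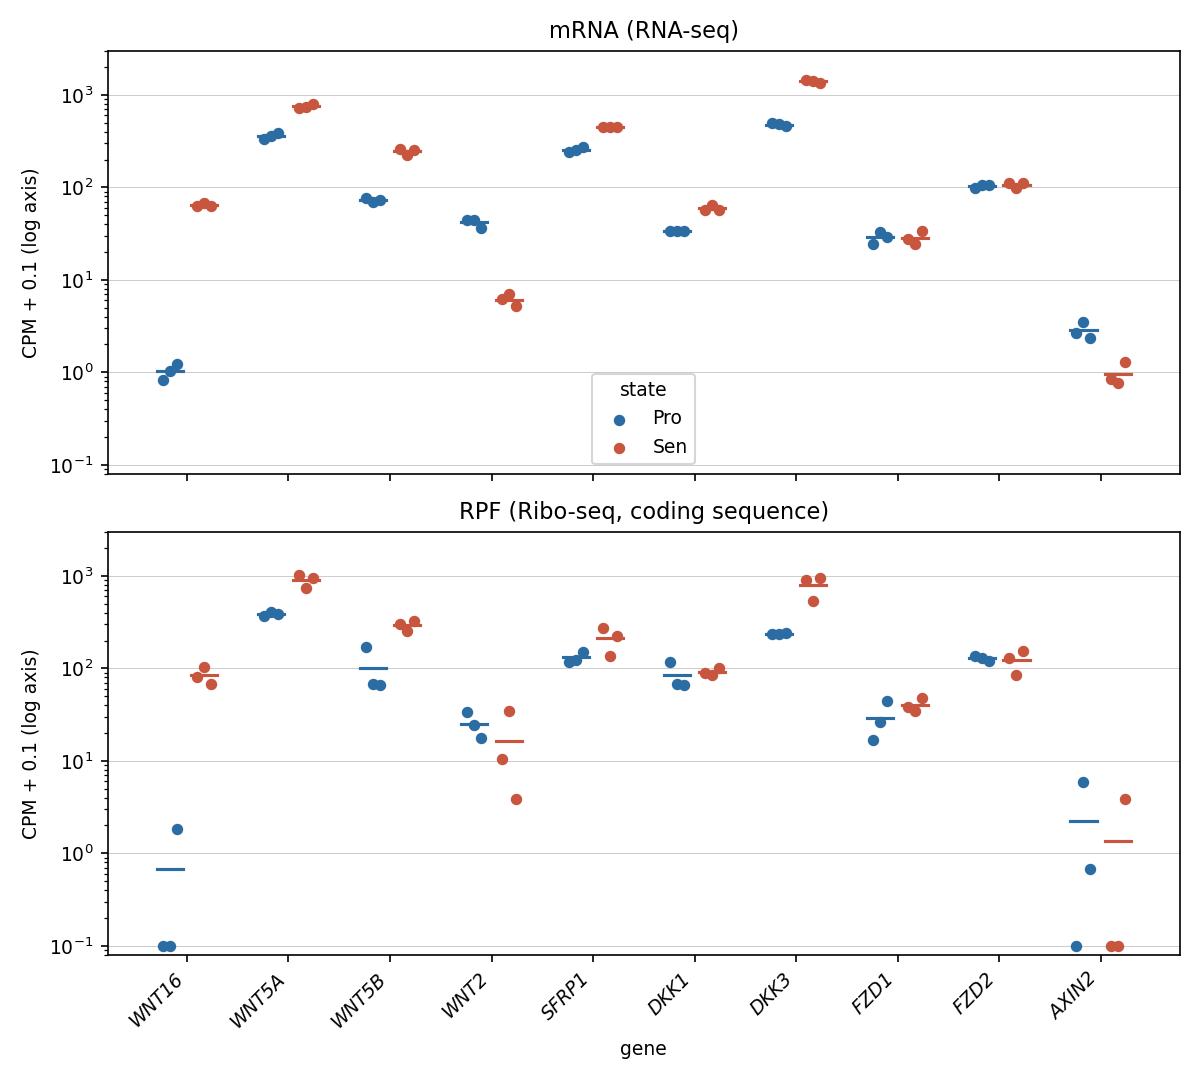
Level of each gene in every library, as CPM plus 0.1 on a log axis, for mRNA (top) and RPF (bottom); points are the 3 libraries of each state and bars their mean. WNT16 sits at about 1 CPM of mRNA in Pro and at 62.9 to 67.2 CPM in Sen, whereas the RPF points of WNT2, SFRP1, DKK1, FZD1, FZD2 and AXIN2 overlap between the states.

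WNT16 (chr7:120965421-120981158, plus strand, 4 exons) encodes a ligand with reported roles in both branches. Its mRNA was read at 0.732, 0.940 and 1.12 CPM in the Pro libraries and at 63.4, 67.2 and 62.9 CPM in the Sen libraries. These values rest on 6, 11 and 12 reads against 596, 918 and 689 reads. In Ribo-seq 0, 0 and 3 reads were found in Pro and 125, 6 and 36 in Sen, or 81.3, 102.4 and 67.9 CPM.

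Both layers thus went from near absence to a moderate level in all 3 senescent replicates. Pooled over the libraries of a state, the RPF rate was 59.2 times higher in Sen, on 3 reads in Pro and 167 in Sen. The pooled mRNA rate was 63.7 times higher, on 29 and 2203 reads. Both ratios describe a gene picked for its RPF gain and carry no test. With 3 reads in Pro the RPF ratio is imprecise. The absence of footprints in the shallow Pro 1 says little about levels below those of Sen. There 3 reads equal 55.1 CPM of the library total, whereas in Pro 2 they equal 4.38 CPM.

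The fitted log2 fold changes of WNT16 were 6.08 ± 0.15 (SE) for mRNA and 5.84 ± 0.47 for RPF. The RPF value was the highest of all tested genes and that of mRNA was number 16 from the top. All 3 proliferating RPF reads come from Pro 3, and without Pro replicate 3 the RPF value became 8.49 ± 1.02, while leaving out any other library gave 5.39 to 5.95. The TE coefficient was 0.15 ± 0.98, an error that leaves the size of a change in efficiency unresolved at this depth. The genes whose mRNA profile over the 6 libraries was most like that of WNT16, by the Euclidean distance of mean-centred log2 CPM, were TMEM178B at 0.43, KISS1 at 0.57 and CLSTN2 at 0.66. TMEM178B rose from 4.75 ± 0.626 CPM (SD, n = 3) to 196.5 ± 17.1 CPM, KISS1 from 7.24 ± 0.400 to 268.8 ± 28.8 CPM, and CLSTN2 from 0.250 ± 0.125 to 46.3 ± 6.27 CPM, values that chose them and carry no test.

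WNT5A (chr3:55499743-55524567, minus strand, 5 exons), the best known non-canonical ligand, was the most abundant ligand of these cells. Its mRNA lay at 333.7, 360.7 and 391.3 CPM in Pro and at 730.0, 745.0 and 797.0 CPM in Sen. The groups did not overlap and the level was 2.09-fold higher (log2 1.06 ± 0.08, adjusted p = 5.27e-11). RPF were at 370.4, 407.6 and 390.5 CPM in Pro and at 1013, 733.5 and 949.0 CPM in Sen, which is a log2 change of 1.25 ± 0.17 (adjusted p = 2.07e-09). Footprints and mRNA of WNT5A were both higher, and the log2 TE difference of 0.22 ± 0.17 did not pass (adjusted p = 0.533). The annotation places an antisense RNA, WNT5A-AS1, on the opposite strand, and without a stated strand rule its reads and those of WNT5A cannot be told apart.

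WNT5B (chr12:1639057-1756378, plus strand, 5 exons) is the close paralog of WNT5A. Its mRNA was at 75.9, 69.6 and 72.2 CPM in Pro against 262.0, 224.9 and 256.1 CPM in Sen, 3.41-fold higher (log2 1.77 ± 0.08, adjusted p = 1.80e-14). RPF lay at 168.4, 67.7 and 66.5 CPM in Pro and at 300.3, 255.9 and 324.5 CPM in Sen, a log2 change of 2.11 ± 0.19 (adjusted p = 4.88e-16). All senescent libraries lay above all proliferating ones in both layers. The high Pro value, 168.4 CPM, comes from 10 reads of the shallow Pro 1. The log2 difference in TE was 0.25 ± 0.20 (adjusted p = 0.529). FBXL14 overlaps WNT5B on the opposite strand in the annotation.

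WNT2 (chr7:116915505-116963206, minus strand, 5 exons), a ligand of the canonical branch, went the other way. Its mRNA was at 44.6, 44.6 and 36.0 CPM in Pro and at 6.06, 6.88 and 5.11 CPM in Sen, a 6.85-fold loss without overlap (log2 -2.78 ± 0.13, adjusted p = 3.07e-14). Footprints were few, with 2, 17 and 30 reads in Pro and 16, 2 and 2 in Sen. They correspond to 33.7, 24.5 and 17.4 CPM against 10.4, 34.1 and 3.77 CPM, and the groups overlapped through the shallow Sen 2.

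The fitted RPF change of WNT2 was -1.08 ± 0.42 (adjusted p = 0.0311), smaller than that of its mRNA, and the log2 TE difference was 1.63 ± 0.49 (adjusted p = 0.0478). WNT2 was the single member called for TE. The TE call was lost without Pro replicate 3 (adjusted p = 0.225), without Sen replicate 1 (0.646), which holds 16 of the 20 senescent reads, and with DESeq2 (0.9998). The RPF call was lost without Sen replicate 3 (0.215) and with DESeq2 (0.493). Over the TE alternatives the log2 difference ranged from 1.38 to 1.91 and its adjusted p from 0.0299 to 0.9998. WNT2 overlaps CFTR on the opposite strand in the annotation.

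**Figure D2:**
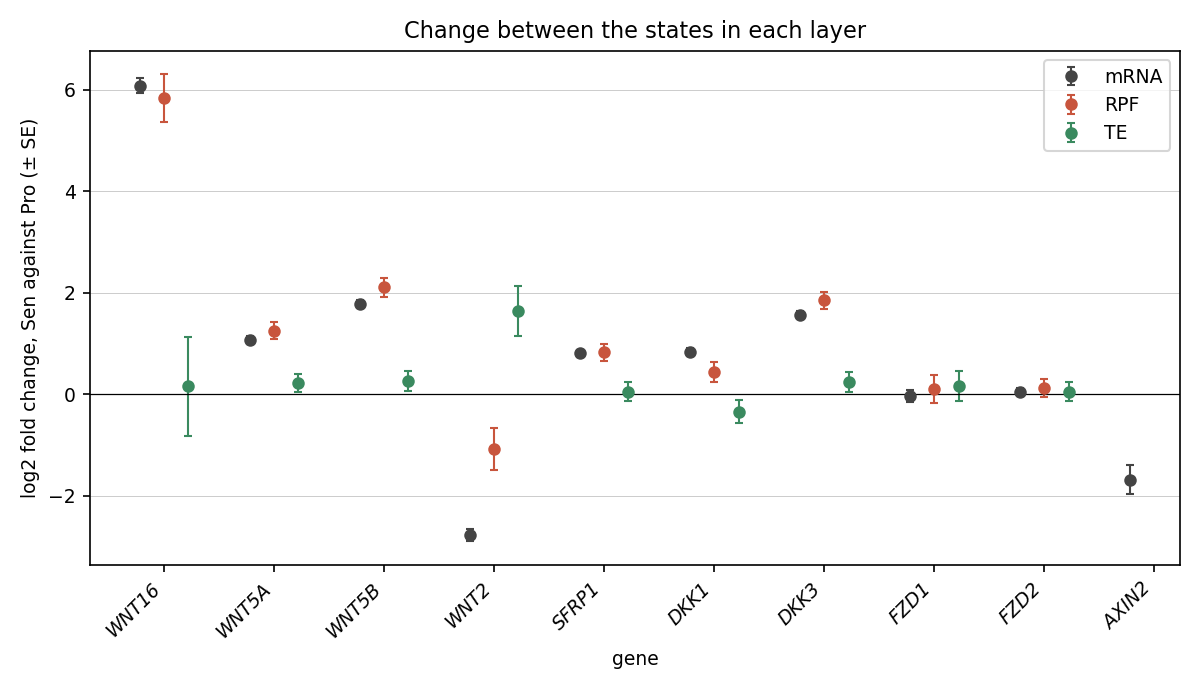
Log2 fold change of senescent against proliferating cells with its SE for mRNA, RPF and TE of each gene; AXIN2 had too few footprints for RPF and TE. For WNT5A, WNT5B, SFRP1 and DKK3 the mRNA and RPF points are within 0.4 of each other, and for WNT2 they lie at -2.78 and -1.08.

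Because levels of different genes can be compared only per length, CDS reads were divided by coding length to give CPM per kb. Summed over all 19 WNT genes of the genome, the mRNA level was 257.3 ± 5.26 CPM per kb (SD, n = 3) in Pro and 615.1 ± 68.4 in Sen, and the RPF level 459.9 ± 44.98 and 1156 ± 135.4. WNT5A was the largest part of this sum in every library, with 61.1% ± 2.64 of the mRNA level in Pro and 56.9% ± 1.31 in Sen. WNT5B rose from 22.2% ± 0.668 to 32.5% ± 0.220. WNT2 and WNT16 exchanged places as the third ligand, since WNT2 made up 16.9, 14.8 and 12.7% in the Pro libraries but 0.961, 0.996 and 0.529% in the Sen libraries, and WNT16 0.268, 0.426 and 0.414% against 9.07, 10.4 and 7.996%.

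In the RPF layer WNT16 made up 0, 0 and 0.370% of the summed ligand level in Pro and 5.87, 9.29 and 5.13% in Sen. WNT2 held 6.08, 5.12 and 3.76% in Pro and 0.762, 3.14 and 0.289% in Sen. WNT5A stayed the main ligand on ribosomes, at 63.4, 80.7 and 80.1% in Pro and 70.3, 64.0 and 68.9% in Sen. The other 15 WNT genes together held at most 1.65% of the mRNA and 1.38% of the RPF level in any library.

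**Figure D3:**
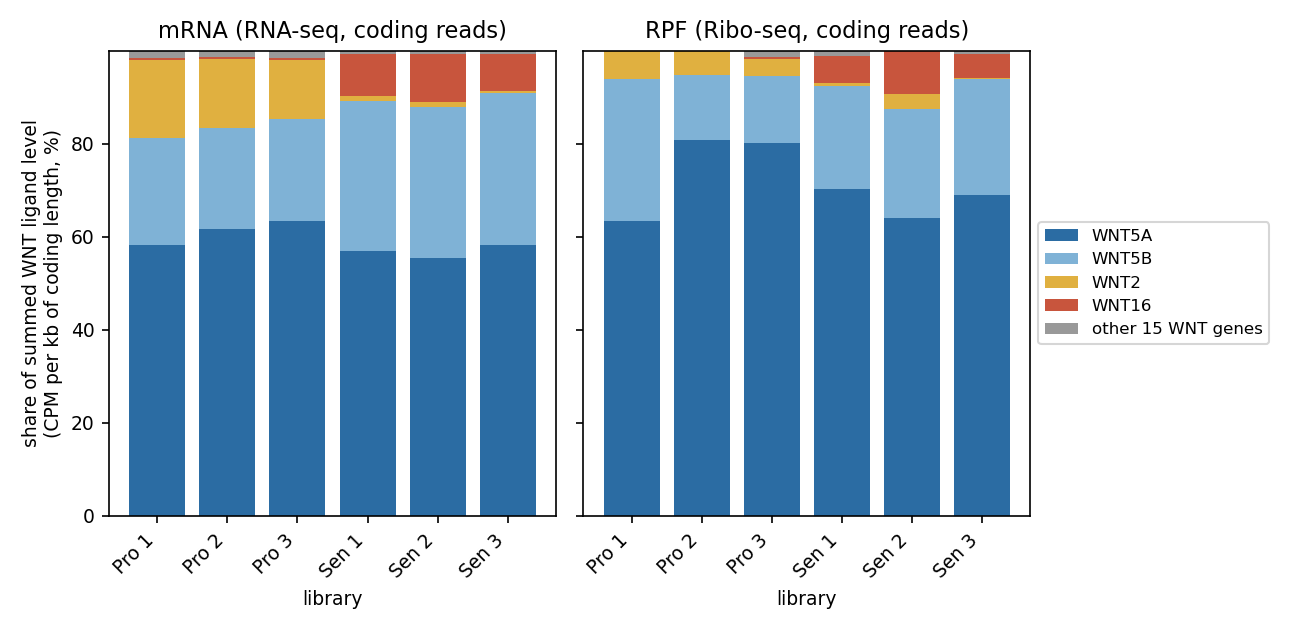
Share of each ligand in the summed level of all 19 WNT genes (CPM per kb of coding length, %), per library, for mRNA (left) and RPF (right). WNT5A fills the largest part of every bar, the WNT2 part shrinks from 12.7 to 16.9% of mRNA in Pro to under 1% in Sen, and WNT16 appears in Sen.

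Among the 3 antagonists of the list, DKK3 (chr11:11977754-12031316, minus strand, 7 exons), the divergent member of the Dickkopf family, was the most abundant and gained the most. Its mRNA lay at 494.5, 481.1 and 455.5 CPM in Pro and at 1466, 1418 and 1354 CPM in Sen, 2.96-fold higher (log2 1.57 ± 0.07, adjusted p = 4.82e-14). RPF were at 235.7, 237.6 and 240.6 CPM in Pro and 902.3, 528.8 and 947.1 CPM in Sen (log2 1.85 ± 0.17, adjusted p = 6.15e-15). No Sen library overlapped a Pro library in either layer. The log2 TE difference of 0.24 ± 0.19 did not pass (adjusted p = 0.527), though it did without the shallow Pro 1 and Sen 2 together (0.35 ± 0.13, adjusted p = 0.135). USP47 lies on the opposite strand over part of DKK3.

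SFRP1 (chr8:41119481-41166992, minus strand, 3 exons), which sequesters WNT ligands, rose less. Its mRNA was at 242.7, 252.8 and 271.2 CPM in Pro and at 448.2, 445.7 and 446.6 CPM in Sen, 1.75-fold higher (log2 0.81 ± 0.07, adjusted p = 1.46e-09). RPF lay at 117.9, 123.9 and 151.6 CPM against 275.6, 136.5 and 224.5 CPM (log2 0.82 ± 0.17, adjusted p = 5.60e-05). The RPF groups overlapped at the shallow Sen 2, whose value rests on 8 reads. The log2 TE difference was 0.05 ± 0.19 (adjusted p = 0.924). In the annotation MIR548AO and ENSG00000253509 overlap SFRP1 on the same strand, and RPS29P2 and RNU6-895P on the opposite one.

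DKK1 (chr10:54074041-54077802, plus strand, 4 exons), an inhibitor of the LRP co-receptors, had the lowest mRNA of these 3 antagonists. It was read at 33.9, 33.5 and 33.5 CPM in Pro and at 57.0, 64.7 and 57.1 CPM in Sen, 1.78-fold higher (log2 0.83 ± 0.08, adjusted p = 1.14e-08). RPF were at 117.9, 67.7 and 65.4 CPM in Pro and at 89.1, 85.3 and 99.99 CPM in Sen. These groups overlapped, again through Pro 1 with 7 reads, and the log2 RPF change was 0.44 ± 0.20 (adjusted p = 0.0718). An antisense RNA, PRKG1-AS1, overlaps DKK1 on the opposite strand in the annotation.

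Of the 6 members called for RPF, DKK1 lost its call under the most alternatives. It was lost at an adjusted p of 0.05, with library totals in place of TMM factors (0.214), with DESeq2 (0.734), with the replicate number as a block (0.401), and without Pro replicate 2 (0.228), Pro replicate 3 (0.418), Sen replicate 1 (0.165) or Sen replicate 3 (0.195). Without the shallow Pro 1 and Sen 2 together it stood at 0.49 ± 0.18 (adjusted p = 0.0357). The log2 ratio of RPF to mRNA per lysate was 1.89, 1.03 and 0.97 in Pro and 0.65, 0.54 and 0.82 in Sen, so each senescent lysate lay below each proliferating one. The fitted TE difference, -0.34 ± 0.22, did not pass (adjusted p = 0.424).

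DKK1 also had a match to a TCF/LEF motif in its promoter, the single match among the members with a promoter entry. The letters CTTTGAA and CTTTGAT, which do not overlap one another in a single place, were searched on both strands of RefSeq promoters (GRCh38.p14, from 250 bases before to 50 after a gene's start). They occurred in 2409 of 35116 promoters, or 6.86%. Entries existed for 6 of the 10 members and gave 8 promoters, of which 1 had a match. It starts 95 bases before the DKK1 start and is printed in capitals, as the description of a match in these letters only.
DKK1, chr10:52314175-52314204, plus strand: ccctcccagcgCTTTGAAatcccatcccgg

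The receptors gave no call in any layer. FZD2 (chr17:42634852-42638630, plus strand, 1 exon) was at 99.0, 106.0 and 105.5 CPM of mRNA in Pro and at 111.6, 98.1 and 110.8 CPM in Sen (log2 0.04 ± 0.07, adjusted p = 0.632). FZD1 (chr7:90893748-90900641, plus strand, 1 exon) was at 24.4, 32.5 and 29.3 CPM in Pro and at 27.8, 24.0 and 33.7 CPM in Sen (log2 -0.03 ± 0.12, adjusted p = 0.838). Both overlapped between the states. RPF changes were 0.12 ± 0.18 for FZD2 (adjusted p = 0.607) and 0.11 ± 0.28 for FZD1 (adjusted p = 0.777), and the wider error of FZD1 comes with 1, 18 and 77 reads in Pro and 58, 2 and 25 in Sen.

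AXIN2 (chr17:63524681-63557766, minus strand, 11 exons) is a target gene that β-catenin induces and whose product promotes β-catenin degradation. Its mRNA was low and fell, from 2.56, 3.42 and 2.23 CPM in Pro to 0.744, 0.659 and 1.19 CPM in Sen, on 21, 40 and 24 against 7, 9 and 13 reads. The states did not overlap and the level was 3.21-fold lower (log2 -1.68 ± 0.29, adjusted p = 2.84e-05). Over 13 alternatives the log2 change ranged from -1.99 to -1.47. In Ribo-seq AXIN2 had 0, 4 and 1 reads in Pro and 0, 0 and 2 in Sen, so that no difference was detectable at this depth.

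The order of members per kb of coding length differed between the states. For mRNA in Pro it was DKK3, WNT5A, SFRP1, FZD2, WNT5B, DKK1, WNT2, FZD1, AXIN2 and WNT16, from 338.4 ± 5.44 to 0.952 ± 0.235 CPM per kb (SD, n = 3), and the ranges of AXIN2 and WNT16 alone overlapped. In Sen it was DKK3 (1033 ± 65.5), WNT5A (350.5 ± 46.9), WNT5B (199.8 ± 23.1), SFRP1 (142.6 ± 16.1), DKK1 (89.9 ± 6.88), FZD2 (68.5 ± 7.42), WNT16 (55.8 ± 1.217), FZD1 (13.5 ± 2.18), WNT2 (5.00 ± 1.25) and AXIN2 (0.373 ± 0.123), with no overlap between neighbours. WNT16 thus stood above FZD1 in senescent cells, and WNT2 had dropped below it.

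On ribosomes WNT5A came before DKK3 in Pro, with 340.8 ± 16.3 against 226.0 ± 2.36 CPM per kb and separate ranges. In Sen they lay at 786.0 ± 128.0 and 752.8 ± 218.1 CPM per kb and their ranges overlapped. SFRP1, DKK1, WNT5B and FZD2 followed in Pro, each overlapping the next. WNT16 reached 76.4 ± 15.8 CPM per kb in Sen, which overlapped FZD2 at 72.4 ± 20.7.

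As a readout of transcript ends that the choice of members did not use, the share of a gene's mRNA reads in its 3′ UTR was compared for the 7 members with at least 100 reads in every RNA-seq library. It ranged from 12.9% ± 3.66 for DKK1 to 75.3% ± 0.717 for SFRP1 in Pro and from 9.80% ± 1.16 to 74.9% ± 3.27 in Sen. The largest differences of Sen minus Pro were -3.13 points for DKK1, 2.66 points for FZD2 and -2.57 points for WNT5B. The states overlapped for all 7 genes, and none passed an exact two-sided permutation test (adjusted p = 0.9 for all 7). Its smallest possible p with 3 against 3 is 0.1. After adjustment over 7 genes a single separated gene could therefore not pass, and the test cannot show a lack of change. Over all genes the 3′ UTR share was 24.6 to 25.1% in Pro and 26.8 to 28.8% in Sen.

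Outside the members, 74 further genes of the pathway were fixed by role, of which 43 could be tested for mRNA. Of these, 37 were called, 22 higher and 15 lower, beside the 73.6% of all genes. Of all genes 36.6% were called higher and 37% lower for mRNA, shares against which the mRNA counts by role below are to be read. With library totals in place of TMM factors, which moves the median log2 change of all genes to -0.11 for mRNA and -0.14 for RPF, the split turned to 17 higher and 20 lower. For RPF 12 of 20 were called, 7 higher and 5 lower, beside the 54.4% of all genes, and library totals turned this split to 5 higher and 8 lower. DESeq2 left 3 of these RPF calls (FZD8, ROR2 and WLS) and the replicate number as a block left 6. For TE 2 of 20 were called, beside the 9.37% of all genes.

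Of the other 15 ligand genes 5 were tested and 4 were higher and 1 lower in mRNA. The extremes were WNT10B and WNT7B. WNT10B had 2 reads in Pro and 58 in Sen over all libraries (ratio 24.3, 95% exact interval 6.43 to 205.5, counting error only). WNT7B fell from 3.85 ± 0.0450 to 0.476 ± 0.0491 CPM (log2 -3.00 ± 0.27, adjusted p = 3.06e-09). Both were far below WNT5A in reads. Of the 19 WNT genes 9 were tested for mRNA. The others had at most 10 reads in each RNA-seq library, except WNT9B. It had no CDS read, but its 3′ UTR held up to 14.8 RNA-seq reads (Sen 2). No ligand outside the members had enough footprints for a test.

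Among the 13 other genes listed as antagonists, not all of them secreted, 4 were tested. DKK2, a Dickkopf protein that also binds LRP6, had 2 reads in Pro and 217 in Sen (0, 0.171 and 0 CPM against 5.95, 6.004 and 7.22 CPM), a ratio of 90.9 with an exact interval of 24.9 to 755.7. FRZB, a relative of SFRP1, went from 2.26 ± 0.346 to 0.422 ± 0.128 CPM (log2 -2.42 ± 0.33, adjusted p = 1.53e-06). APCDD1 and KREMEN1, the remaining tested genes of this list, are membrane proteins. APCDD1 was called lower (log2 -1.60 ± 0.15, adjusted p = 2.78e-09) and KREMEN1 was not called (adjusted p = 0.549). The list as a whole thus moved in both directions, 1 called higher and 2 lower.

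Of the other receptors, 12 of 14 were tested, with 7 higher and 4 lower. FZD8 rose from 7.37 ± 1.16 to 24.0 ± 3.31 CPM (log2 1.67 ± 0.13, adjusted p = 4.15e-10) and its RPF by 2.24 ± 0.35 (adjusted p = 1.75e-07). ROR2, the receptor tyrosine kinase used by WNT5A, fell from 34.9 ± 2.65 to 7.29 ± 1.09 CPM (log2 -2.28 ± 0.12, adjusted p = 2.81e-13). Its footprints fell as well, from 83 reads over the Pro libraries to 9 over the Sen libraries (log2 -2.92 ± 0.45, adjusted p = 1.04e-07). WNT5A mRNA and ROR2 mRNA therefore moved in opposite directions.

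The co-receptors rose by less. LRP6 was at 50.9 ± 2.50 CPM in Pro and 80.2 ± 0.0566 CPM in Sen (log2 0.65 ± 0.07, adjusted p = 8.72e-08), and its RPF change was 0.78 ± 0.29 (adjusted p = 0.0234). That RPF call was lost with DESeq2 (0.553), with the replicate number as a block (0.226), and without Pro replicate 3 (0.227) or Sen replicate 1 (0.333). LRP5 changed by 0.47 ± 0.08 in mRNA (adjusted p = 2.58e-05) and by 1.16 ± 0.26 in RPF (adjusted p = 0.000187), which DESeq2 did not call (0.172). It was 1 of 2 genes called for TE, at 0.71 ± 0.26 (adjusted p = 0.119). The other was APC, a scaffold of the β-catenin destruction complex named here after its values were seen, at -0.88 ± 0.27 (adjusted p = 0.0489). Both TE calls were lost without Pro replicate 2, Pro replicate 3, Sen replicate 1 or Sen replicate 3, where the adjusted p lay from 0.199 to 0.358 for APC and from 0.207 to 0.532 for LRP5, and with DESeq2 (0.9998 for both).

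Both genes needed to make and release a WNT ligand were higher. PORCN, which adds the lipid, went from 6.44 ± 0.184 to 14.6 ± 1.55 CPM (log2 1.184 ± 0.13, adjusted p = 5.91e-08). WLS, which carries the ligand to the cell surface, went from 236.3 ± 4.39 to 406.6 ± 28.4 CPM (log2 0.78 ± 0.07, adjusted p = 3.58e-09), with an RPF change of 1.11 ± 0.16 (adjusted p = 5.16e-08). Of the R-spondin axis, which stabilises receptors, 2 of 9 genes were tested and LGR4 rose by 0.71 ± 0.11 (adjusted p = 4.54e-06).

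Inside the cell, CTNNB1 mRNA was at 238.1 ± 19.9 CPM in Pro and 228.0 ± 5.46 CPM in Sen and did not pass in any layer (mRNA log2 -0.06 ± 0.07, adjusted p = 0.462). Of the 10 relay genes 6 were called higher and 1 lower, a split that turned to 3 and 4 with library totals. BTRC, a subunit of the ligase that marks β-catenin for degradation, was the highest (log2 0.83 ± 0.08, adjusted p = 7.13e-09) and DVL2, which relays the receptor signal, the lowest (log2 -1.03 ± 0.09, adjusted p = 1.71e-09). Of the 8 nuclear partners of β-catenin 7 were called lower for mRNA, beside 37% of all genes. Library totals, RLE factors and DESeq2 also gave 7. Library totals called 5691 of all 12787 genes lower, against 4729 in the main test. For RPF 2 of these partners were tested, and 1 was called higher and 1 lower. TCF7 mRNA fell the most, from 6.37 ± 1.94 to 1.99 ± 0.505 CPM (log2 -1.60 ± 0.23, adjusted p = 3.33e-06). The smallest fall among those whose states did not overlap was that of TCF7L2, by 0.25 ± 0.11 on the log2 scale (adjusted p = 0.0476), a call lost without Pro replicate 2 (0.170). The 3 other feedback targets listed had too few reads for a test. In bulk libraries a change in the number of cells that express a gene and a change in RNA per cell cannot be told apart.

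**Figure D4:**
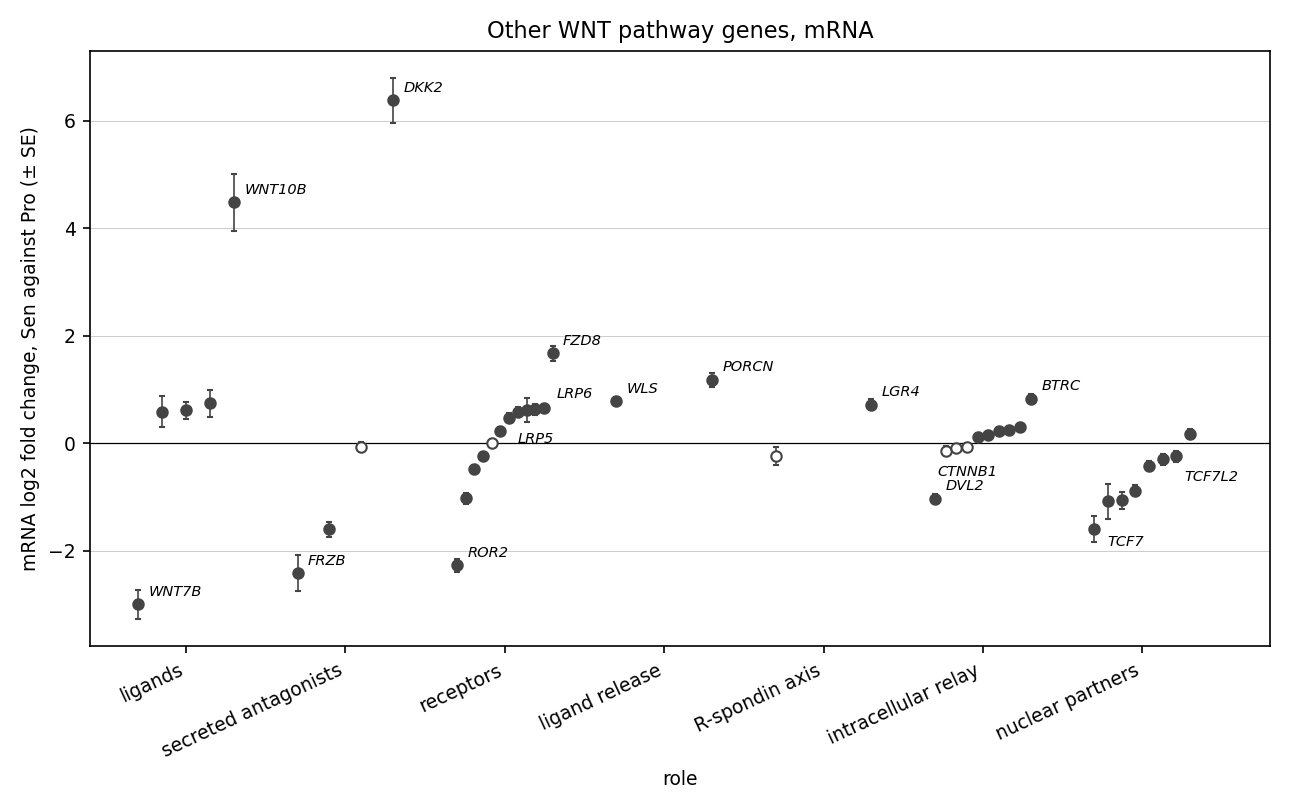
Log2 fold change of mRNA (senescent against proliferating, with SE) for the 43 tested pathway genes outside the members, by role; filled points passed the adjusted p of 0.15 and open points did not. DKK2 and WNT10B lie highest and WNT7B lowest, and 7 of the 8 nuclear partners lie below 0. The role of secreted antagonists includes the membrane proteins APCDD1 and KREMEN1.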

How the data were processed

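The authors deposited 1 table per library, which holds an expected count (estimated count of reads, not scaled to depth) for each gene symbol in the CDS, either UTR and non-coding classes. Per the labels, processing used cutadapt 1.18, Bowtie 1.0.1, SAMtools 1.8 and DESeq2 1.22.2. The genome build, annotation, strand rule and treatment of reads with several placements of these tables are not given in the sources used here. From 12.1% to 22.7% of nonzero CDS values of Ribo-seq libraries were not whole, and values were rounded after regions were summed. The tests had been planned for such counts.

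Groups and replicate numbers came from the sample labels, and p-values measure the spread between 3 lysates of each state. Differences were tested in R 4.3.3 by edgeR 4.0.16 (glmQLFit and glmQLFTest, genes kept by filterByExpr), with TMM factors within each library type and Benjamini-Hochberg adjustment over all genes tested. The threshold of 0.15 follows the study's false discovery rate. TE was tested over all 12 libraries with the lysate as a block, library type, and its interaction with state, and per lysate as the log2 ratio after adding 0.5 to each count. The lysate pairs Ribo-seq with RNA-seq because, per the protocol, RNA came from a part of each lysate. SEs were taken from the coefficient and its test statistic. DESeq2 1.42.0 served as an alternative. Shares and exact intervals were computed with Python 3.11.15 and scipy 1.17.1. The tests were checked on simulated counts. Sequences were read from GENCODE v44 on GRCh37 and from RefSeq promoters on GRCh38.p14, which may not be the authors' annotation.

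The members and all gene lists were chosen with earlier results of these data known. Named outside the members are, per role, the highest and the lowest gene by mRNA change among those called whose states did not overlap, CTNNB1, LRP5 and LRP6, and the 3 genes most like WNT16. APC was named for its TE call, after its values were seen. APCDD1 and KREMEN1 were named to complete the tested antagonists, also after their values were seen. Alternatives were other scalings, filters, tests and thresholds, CDS reads only, replicate blocks, and leaving out each replicate. Depth ranged from 7902427 to 14144455 RNA-seq reads and from 54421 to 1718521 RPF reads per library. PCR copies are not independent molecules, so floors (3 counts) and intervals reflect counting error alone.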

Additional observations from a re-analysis of the deposited data

Results flagged for a closer look

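Ribo-seq reads in the 3′ UTR enter no comparison above, and for 2 members every senescent library lay above every proliferating one when these reads were set against the CDS reads of the library. In WNT5A there were 1, 0 and 4 such reads for the proliferating libraries and 48, 13 and 23 for the senescent ones, 84 in all for the latter, and these separate the states only on the CDS reads of the library. Per 100 of its own CDS reads the values overlapped, at 4.55, 0 and 0.593 for Pro 1, 2 and 3 and at 3.08, 30.2 and 4.57 for Sen 1, 2 and 3. In WNT5B there were 0, 0 and 1 before and 5, 1 and 4 after senescence, 10 in all for the latter. Per 100 of its own CDS reads these were 0, 0 and 0.870 against 1.08, 6.67 and 2.33. Over all genes the 3′ UTR reads per 100 CDS reads were 15.96, 2.05 and 1.46 for Pro 1, 2 and 3, respectively, against 3.84, 36.4 and 6.02 for Sen 1, 2 and 3, so that Pro 1, Sen 2 and Sen 3 stood highest. The part of this library-wide difference in the reads of WNT5A and WNT5B was not tested. The share of all genes whose states separate in this way was not counted, so the 2 members are not set apart from other genes. On the same scale, Ribo-seq reads in the 5′ UTR were lower in every senescent library for WNT2 and DKK1. WNT2 had 2, 2 and 2 such reads in Pro and 0, 0 and 0 in Sen, and DKK1 had 1, 2 and 7 against 2, 0 and 0. These counts are low, and the lack of such reads in the shallow Sen 2 says little. Over all genes the 5′ UTR reads per 100 CDS reads were 13.1, 3.92 and 2.90 for Pro 1, 2 and 3. For Sen 1, 2 and 3 they were 5.33, 110.1 and 16.9. WNT2 mRNA was also 6.85-fold lower in Sen, and its part here was not tested. The share of all genes that separate in this way was not counted for the 5′ UTR either.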

How the results depend on the processing

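Without the shallow Pro 1 and Sen 2, 2 members were called for TE (WNT2 and DKK3) instead of 1. With at least 10 counts in every library only 3 members and 3 other pathway genes could be tested. For RPF 3 and 3 were called, beside 605 of 828 genes in all, and for TE 0 and 0, beside 230 of 828. DESeq2 called 3 other pathway genes for RPF, 0 members and 0 other pathway genes for TE (unadjusted p under 0.05 also 0 in each, against 1 and 2 calls of edgeR). At least 1 read left 1 other pathway gene called for TE, and so did an adjusted p of 0.05. Leaving out 1 replicate at a time gave 4 to 6 members and 7 to 15 other pathway genes for RPF. Over all genes the RPF calls then ran from 2681 of 8066 (without Sen 1) to 4555 of 8006 (without Pro 1). For TE the counts were 0 to 1 and 0 to 3, beside 134 of 7936 genes (without Pro 2) to 1154 of 7959 (without Pro 1). The counts of 0 for TE had 0 to 2 genes at an unadjusted p under 0.05. For mRNA leaving out 1 replicate gave 7 members throughout and 34 to 37 other genes, beside 8851 to 9373 of all genes.

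Pro and Sen samples share replicate numbers, and the main tests did not pair them. The correlations of their deviations were 0.046, -0.11 and 0.15 for mRNA and -0.0045, -0.014 and 0.049 for RPF. Between mRNA and RPF of the same lysate they were 0.031, -0.062 and 0.076 in Pro and 0.051, 0.011 and 0.033 in Sen. These are as small, so the correlations cannot decide which libraries are paired. The lysate block rests on the protocol alone. With the replicate number as a block 7 members were called for mRNA and 5 for RPF, and 36 and 6 other pathway genes. Without the lysate block (no replicate block), WNT16 had a TE change of -0.070 and 1 member was called. Over all genes 1342 were then called for TE, against 700 with the block.

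Library totals in place of TMM factors turned the higher share of all RPF calls from 50.5% to 39.5% and reversed FZD2 (mRNA -0.063, RPF -0.014) and FZD1 (RPF -0.024). TMM factors over all 12 libraries gave 557 higher of 810 TE calls against 365 of 700. DESeq2 called 8723 genes for mRNA, 1164 for RPF and 28 for TE, and turned TE of WNT16 to -0.14, of SFRP1 to -0.059 and of FZD2 to -0.032. Leaving out 1 replicate gave from -0.18 to 0.085 for FZD1 mRNA, -0.10 to 0.69 for FZD1 RPF, -0.11 to 0.81 for FZD1 TE, -0.31 to 5.75 for WNT16 TE, -0.16 to 0.14 for SFRP1 TE and -0.042 to 0.18 for FZD2 TE. For the 3′ UTR share it gave -4.41 to 0.31 points for WNT5A, -2.29 to 0.76 for SFRP1, -3.43 to 0.55 for DKK3 and -2.87 to 1.24 for FZD1. Without the 5′ UTR in the denominator SFRP1 stood at 0.75 points. No gene passed in any of these (0 of 7), where a single separated gene could not pass with so few libraries. The cause of these changes between settings was not tested. Few footprints stand behind WNT2 (49 reads in Pro and 20 in Sen), FZD1 (96 and 85) and AXIN2 (5 and 2), which limits what their RPF values can show.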
